A study of Mus musculus with 15 samples.

Results

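The submandibular gland, a salivary gland, was compared between untreated adult male mice (NT) and adult male mice whose glands had been exposed to local irradiation 7 days earlier (IR). All animals were wild-type C57BL/6 mice. The comparison used the 6 libraries of these groups, 3 in each, out of 15 in the series, and covered all genes with enough reads to be tested. The irradiation dose, the ages and the hour of collection are not given in the labels. The other groups were also irradiated and received a gene by transfer into the gland (IR+GFP, IR+Gli1 and IR+Shh). Green fluorescent protein (GFP) is a marker with no known role in the gland, and the IR+GFP levels are given beside some genes as levels only.

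Libraries NT 2 and NT 3 differed by less than the sampling noise of their reads, with a mean chi-square per gene of 0.261, and so did IR 1 and IR 2 (0.224). Other pairs of libraries within NT and within IR gave 44.7 to 223. Each near-identical pair was counted as 1 sample, which left 4 samples, called NT 1, NT 2+3, IR 1+2 and IR 3. The 6 libraries held between 20792514 and 41064723 gene reads each. Levels are in CPM, a gene's reads relative to the TMM-scaled size of the library, and are listed in the order NT 1, NT 2+3 and then IR 1+2, IR 3. Separate animals are not named in the labels, and the p-values therefore reflect no more than the spread among these 4 samples and those of the other groups. The NT samples stood apart in genes of the neighbouring sublingual gland, which held 0.000142% of the reads in NT 1 and 3.15% in NT 2+3. These genes (Dcpp1, Dcpp2, Dcpp3, Muc19 and Smgc) were set aside. Values without NT 2+3 are given for some genes and lists only, and other falls may also depend on that sample.

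The gland makes saliva in acinar cells, which fold, glycosylate and store large amounts of protein and drive fluid with chloride. Ducts then take up sodium, and in male mice their granular convoluted tubules store growth factors and kallikreins. Each secreted protein enters the endoplasmic reticulum (ER), is folded there by chaperones and oxidoreductases, receives N-glycans and leaves in coated vesicles toward the Golgi. Radiation damage to DNA activates the transcription factor p53, whose targets stop the cell cycle, repair DNA and alter metabolism.

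The levels of the irradiation markers matched the labels. Cdkn1a, the gene of the p21 cell cycle inhibitor, was at 1.40 and 1.18 CPM in NT and at 22.3 and 24.0 CPM in IR. Eda2r, which encodes the receptor XEDAR, was at 2.76 and 2.42 CPM in NT and at 20.3 and 24.2 CPM in IR. Phlda3, an inhibitor of the kinase Akt, was at 9.47 and 9.76 CPM in NT and at 45.3 and 43.4 CPM in IR. For all 3 genes both IR samples lay far above both NT samples. Markers that define the gland (Bhlha15 and Aqp5 of acinar cells, Egf of granular tubules, Krt7 of ducts) had reads in all 4 samples, at levels given with those genes.

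Of 14300 genes tested with edgeR's quasi-likelihood test, 97 changed at an adjusted p under 0.05, which is 0.678%. Of these, 74 rose (0.517%) and 23 fell (0.161%). The median log2 fold change of all genes tested was -0.02, and 2504 genes had an unadjusted p under 0.05. The count of genes that fell rests on both groups' samples: it was 0 without IR 1+2, 0 without IR 3, 3 without NT 2+3 and 388 without NT 1, where the lone sample is assumed to vary like the other groups. The 3 were Ppa1, Tubb5 and Prkcb, the last of which had not passed with all 4 samples. Of 17 alternative settings, all 23 falls and 72 of the 74 rises were tested in every one, and the other 2 rises in at least 15. In each setting where a gene was tested, its sign was unchanged. Of the rises, 8 passed under all 17 (Ccng1, Eda2r, Ephx1, Phlda3, Pik3ip1, Tmem44, Trp53inp1 and Zmat3), and of the falls 0 did.

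**Figure D1:**
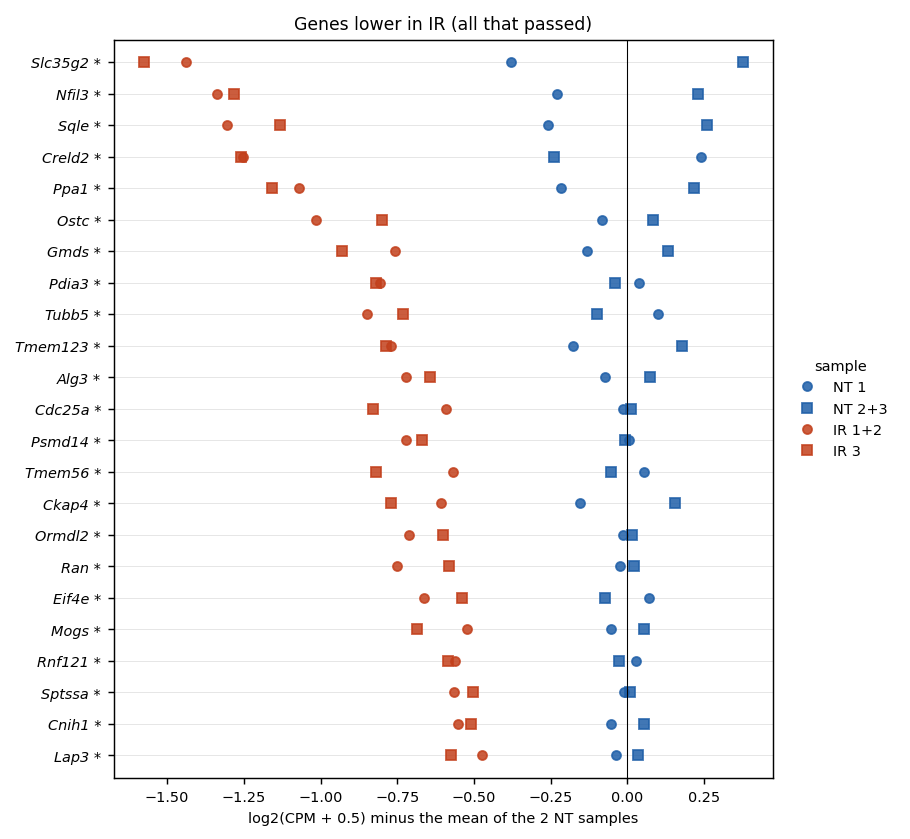
Levels of the 23 genes that fell, as log2(CPM + 0.5) in each sample minus the mean of the 2 NT samples (horizontal axis), 1 gene per row. Blue symbols are NT 1 and NT 2+3 and red symbols IR 1+2 and IR 3. In every row both red symbols lie left of both blue ones, in genes selected by a test on these samples. The NT samples are farthest apart for Slc35g2.

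Genes of the machinery that makes secreted protein lay mostly lower in IR, and 5 of them fell. The lists held 130 tested genes, for ER entry, ER folding, ER to Golgi transport and the supply of glycan precursors. Of these, 5 fell, against 0.161% of all genes tested, 0 rose, against 0.517%, and 125 did not pass. Both IR samples lay below both NT samples for 104 of them, or 80.0%, against 27.3% of all genes tested, and above for 7, or 5.38%, against 23.9%. The groups did not overlap in either direction for 51.2% of all genes tested. The median log2 fold change was -0.31, against -0.02 for all genes tested. In whole glands, fewer cells of a type and less RNA per cell cannot be told apart.

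Of the 27 genes of ER folding, Creld2 and Pdia3 fell, 25 did not pass, and the median log2 was -0.51. It lay between -0.54 and -0.49 under all alternatives, and was -0.52 without NT 2+3. Summed over the list, the level was 9461 and 8145 CPM in NT and 6208 and 5930 CPM in IR. Both IR samples lay below both NT samples for 23 of the 27 genes, against 27.3% of all genes tested.

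Many genes of this list are known to be switched on by the unfolded protein response through the ER stress response element. The motif, written as CCAAT, any 9 bases and CCACG, was searched on both strands in the 250 bases before the gene start in the RefSeq promoters of GRCm38.p6. It stood in 37 of 32851 promoters (0.113%) and in 7 of the 22 ER folding genes that had a promoter in that table: Calr, Canx, Creld2, Dnajc3, Hsp90b1, Hspa5 and Pdia6. It stood in 0 of 24 genes of ER entry, 0 of 30 of ER to Golgi transport and 1 of 27 of glycan precursors, Alg12. The stretches around the motif are shown for Creld2, which fell, and for 3 further chaperone genes, each 5′ to 3′ on the strand of the gene with the motif in capitals. In Creld2 the motif reads on the opposite strand. The regions are chr15:88819490-88819568 for Creld2, chr12:17266461-17266539 for Pdia6 and chr2:34771995-34772073 for Hspa5, all on the plus strand, and chr11:50325770-50325848 on the minus strand for Canx.
Creld2: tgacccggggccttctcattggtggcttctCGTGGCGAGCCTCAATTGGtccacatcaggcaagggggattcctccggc
Pdia6: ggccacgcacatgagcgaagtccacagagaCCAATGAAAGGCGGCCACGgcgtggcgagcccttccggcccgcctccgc
Hspa5: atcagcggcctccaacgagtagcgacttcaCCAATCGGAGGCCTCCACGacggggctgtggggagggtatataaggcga
Canx: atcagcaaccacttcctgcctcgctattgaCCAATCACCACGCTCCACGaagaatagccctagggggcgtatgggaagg

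The motif lay 107 bases before the start of Creld2, 79 before Pdia6, 46 before Hspa5 and 126 before Canx. In the 7 ER folding genes with the motif and in Alg12 both IR samples lay below both NT samples, as in 23 of all 27 ER folding genes and 27.3% of all genes tested. Log2 fold changes of the 7 ran from -1.29 (Creld2) to -0.25 (Canx), and that of Alg12 was -0.31. A match is a description of the letters, and binding was not measured.

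Creld2 (chromosome 15, 88819646 to 88826683, GRCm38) encodes an ER protein with oxidoreductase activity. It was at 138 and 98.9 CPM in NT and at 48.7 and 48.5 CPM in IR. Both IR samples lay below both NT samples by more than the gap between the NT samples. It fell by 1.29 ± 0.21 on the log2 scale (2.44-fold lower, adjusted p = 0.0404). Pdia3, the disulfide isomerase that acts on glycoproteins, was at 795 and 752 CPM in NT and at 442 and 438 CPM in IR. The samples of each group lay close together and the groups did not overlap. It fell by 0.81 ± 0.14 (1.76-fold lower, adjusted p = 0.0404).

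The other chaperones and oxidoreductases did not pass. Dnajb9, a co-chaperone of BiP, was at 93.9 and 84.0 CPM in NT and at 56.7 and 57.9 in IR (log2 -0.64 ± 0.12, adjusted p = 0.0511). Pdia4, a disulfide isomerase, was at 126 and 105 CPM in NT and at 62.4 and 64.5 in IR (-0.86 ± 0.18, adjusted p = 0.0729). In both genes the groups did not overlap and the IR samples were nearly equal. Pdia6 was at 367 and 304 CPM in NT and at 188 and 194 in IR, and Dnajb11 at 185 and 159 in NT and at 106 and 102 in IR. Hspa5, which encodes the major ER chaperone BiP, was at 1378 and 1049 CPM in NT and at 730 and 753 in IR (-0.71 ± 0.25, adjusted p = 0.192). Hsp90b1, the ER form of HSP90, was at 737 and 558 CPM in NT and at 364 and 308 in IR. NT 1, the sample with almost no sublingual reads, was the highest for both genes, and the part of the sublingual tissue was not tested. The ER oxidase genes Ero1l and Ero1lb lay on the other side (log2 0.14 and 0.12). Ero1l was at 79.2 and 81.6 CPM in NT and at 93.0 and 83.7 in IR, with both IR samples above.

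Genes that sense ER stress or remove misfolded proteins lay closer to the median of all genes. Of 18 tested, 0 passed in either direction, and the median log2 was -0.08, which turned to 0.01 without IR 3 and was -0.16 without IR 1+2. Xbp1, a transcription factor of the response, overlapped between the groups, at 214 and 309 CPM in NT and 202 and 217 in IR. Herpud1, a component of ER-associated degradation, was at 236 and 274 CPM in NT and at 283 and 314 in IR, with both IR samples above. The difference between this list and ER folding was not tested.

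Among 32 genes for ER entry and the transfer of N-glycans, Ostc fell and 31 did not pass. In 27 of the 32, both IR samples were below both NT samples, against 27.3% of all genes tested. The median log2 was -0.26, and -0.24 without NT 2+3. Ostc, a subunit of the oligosaccharyltransferase that attaches glycans, was at 75.8 and 85.04 CPM in NT and at 39.5 and 45.9 in IR. Its groups did not overlap, and it fell by 0.91 ± 0.12 (1.88-fold lower, adjusted p = 0.0129). Rpn1, another subunit of that enzyme, was at 345 and 328 CPM in NT and at 202 and 209 in IR (log2 -0.71 ± 0.16, adjusted p = 0.0806). Ssr2, of the complex beside the ER channel, was at 141 and 139 CPM in NT and at 96.9 and 102 in IR (-0.50 ± 0.10, adjusted p = 0.0627). In both, each IR sample lay below each NT sample. Rpn2, a further subunit, was at 295 and 305 CPM in NT and 309 and 265 in IR, and its groups overlapped.

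Of 35 tested genes of transport between ER and Golgi, 0 passed in either direction. In 30 of the 35, both IR samples lay below both NT samples, against 27.3% of all genes tested. The median log2 was -0.31, and -0.30 without NT 2+3. Sec13 and Sar1b, parts of the COPII coat that forms vesicles at the ER, came nearest to the threshold. Sec13 was at 93.2 and 107 CPM in NT and at 66.7 and 70.6 in IR (log2 -0.55 ± 0.10, adjusted p = 0.0562). Sar1b was at 92.3 and 93.9 CPM in NT and at 64.3 and 64.4 in IR (-0.53 ± 0.10, adjusted p = 0.0572). The groups did not overlap for either gene. The 4 genes with both IR samples above were Sec24b, Sec24c, Sec31a and Arfgap3, of which the first 3 also encode COPII subunits. Cnih1, a receptor for cargo leaving the ER that was on no list, fell by 0.54 ± 0.10, from 40.8 and 44.0 CPM to 28.8 and 29.6 (adjusted p = 0.0449).

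Of 36 tested genes for sugar nucleotides and glycan precursors, Gmds and Alg3 fell, 34 did not pass and the median log2 was -0.33. Gmds, the enzyme of the first step from GDP-mannose toward GDP-fucose, was at 50.02 and 60.2 CPM in NT and at 32.3 and 28.6 in IR. It fell by 0.85 ± 0.12 (1.81-fold lower, adjusted p = 0.0178) and its groups did not overlap. Alg3, an ER mannosyltransferase, was at 10.8 and 12.0 CPM in NT and at 6.69 and 7.09 in IR (-0.72 ± 0.13, adjusted p = 0.0435). Mogs, the glucosidase that first trims the N-glycan, was on no list and fell by 0.61 ± 0.10, from 43.0 and 46.4 CPM to 30.9 and 27.6 (adjusted p = 0.0330).

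Several genes of this list were higher in the NT sample that carried sublingual genes. Gfpt1, the entry enzyme of the hexosamine pathway, was at 494 CPM in NT 1 and 847 in NT 2+3, against 362 and 306 in IR. Its log2 fold change was -1.01 with all samples and -0.57 without NT 2+3. Galnt12, which starts mucin-type O-glycans, was at 1.76 CPM in NT 1 and 47.1 in NT 2+3, against 1.90 and 1.30 in IR. The median of the list was -0.21 without NT 2+3 and -0.43 without NT 1. The part of the sublingual tissue in these differences was not tested.

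**Figure D2:**
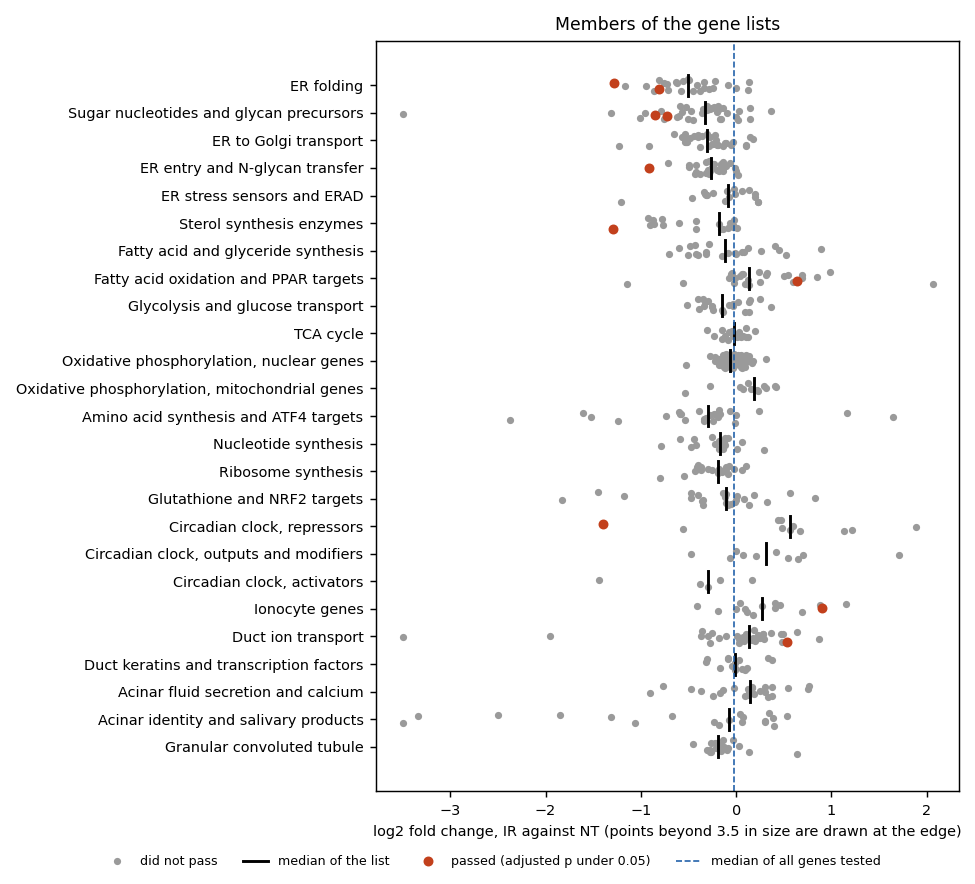
Log2 fold changes of IR against NT (horizontal axis) for the tested members of 25 gene lists (rows). Red points passed at an adjusted p under 0.05, grey points did not. Black bars are list medians and the dashed line is the median of all genes tested. The 3 points beyond 3.5 (Bpifa2, Galnt12 and Kcne1) are drawn at the edge. Medians of the 4 lists of the secretory machinery lie left of the line. So do those of several other lists, among them amino acid synthesis and clock activators (-0.30 each).

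Among enzymes, the lowest adjusted p of all 97 genes belonged to Ephx1 (chromosome 1, 180976210 to 181020904), the microsomal epoxide hydrolase that detoxifies reactive epoxides. It was at 40.7 and 42.7 CPM in NT and at 211 and 232 in IR. The groups lay far apart, and Ephx1 rose 5.32-fold (log2 2.41 ± 0.13, adjusted p = 0.00011). Its level was 226 and 223 CPM in IR+GFP.

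**Figure D3:**
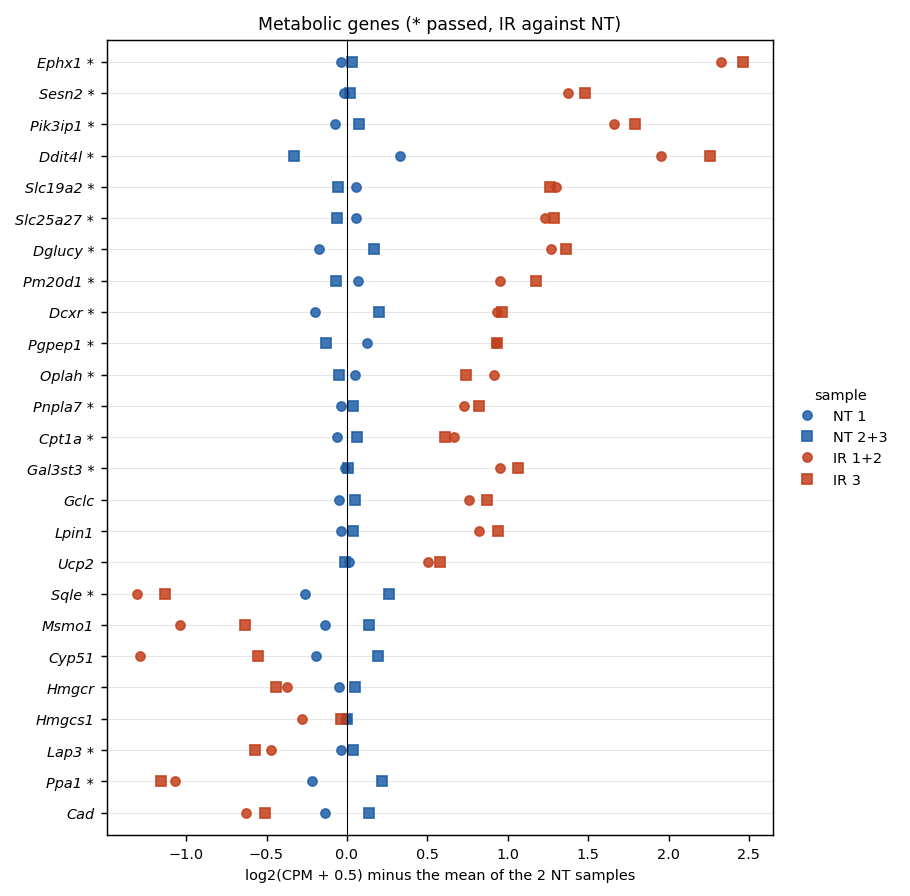
Levels of 25 genes with metabolic roles, chosen after their values were seen, as log2(CPM + 0.5) in each sample minus the mean of the 2 NT samples (horizontal axis), 1 gene per row. Asterisks mark genes that passed; Ephx1 has the IR samples farthest right, and Sqle and Ppa1 have both IR samples more than 1 unit left of 0.

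Further enzymes and carriers that rose are named here after their values were seen. Slc19a2, the thiamine transporter, was at 9.04 and 8.33 CPM in NT and at 22.2 and 21.5 in IR (2.51-fold, adjusted p = 0.00439). Dglucy, the mitochondrial D-glutamate cyclase, was at 13.4 and 17.2 CPM in NT and at 37.4 and 39.8 in IR (2.52-fold, adjusted p = 0.00407). For both genes the IR samples agreed closely and lay above both NT samples. Pgpep1, which removes pyroglutamate from peptides, was at 24.9 and 20.8 CPM in NT and at 43.8 and 44.0 in IR (1.92-fold, adjusted p = 0.0115). Oplah, which opens pyroglutamate to glutamate, was at 31.0 and 28.9 CPM in NT and at 56.7 and 50.4 in IR (1.79-fold, adjusted p = 0.0309). Dglucy, Pgpep1 and Oplah all act on glutamate or its cyclic form. Oplah shares exon positions with Exosc4 and Smpd5 on the opposite strand, and whether counting used the strand is not given in the sources used here. Dcxr, a carbonyl reductase, was at 32.3 and 42.8 CPM in NT and at 71.6 and 73.2 in IR (1.93-fold, adjusted p = 0.0178). Slc25a27, a mitochondrial carrier, was at 1.52 and 1.36 CPM in NT and at 4.04 and 4.22 in IR (2.86-fold, adjusted p = 0.0256). Both rose in each IR sample relative to each NT sample.

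The next 4 genes act in growth signalling and were chosen after their values were seen. Pik3ip1, an inhibitor of phosphoinositide 3-kinase, was at 5.79 and 6.46 CPM in NT and at 20.4 and 22.5 in IR (3.49-fold, adjusted p = 0.0016). Sesn2, a leucine sensor that inhibits mTORC1, was at 7.58 and 7.78 CPM in NT and at 20.7 and 22.3 in IR (2.80-fold, adjusted p = 0.00407). Ddit4l, another inhibitor of mTORC1, was at 0.698 and 0.257 CPM in NT and at 3.19 and 4.06 in IR (7.32-fold, adjusted p = 0.0375). None of the 3 overlapped between groups. Eif4e, the protein that binds the messenger RNA cap, fell by 0.61 ± 0.11, from 58.3 and 52.7 CPM to 34.8 and 37.97 (adjusted p = 0.0404).

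Genes for ribosome synthesis and nucleotides lay mostly lower without passing. Of 22 ribosome synthesis genes, 0 passed in either direction, both IR samples were below both NT samples in 14, against 27.3% of all genes tested, and the median log2 was -0.19. Fbl, the methyltransferase of ribosomal RNA, was at 20.3 and 20.9 CPM in NT and at 12.6 and 15.7 in IR (log2 -0.54 ± 0.12, adjusted p = 0.0775). Of 18 nucleotide synthesis genes, 0 passed, 11 had both IR samples below, against the same 27.3%, and the median was -0.17, which was -0.08 without IR 1+2. Cad, the enzyme that starts pyrimidine synthesis, was at 33.3 and 40.5 CPM in NT and at 23.6 and 25.6 in IR (-0.59 ± 0.13, adjusted p = 0.0771). Both lists lay on the same side of 0 under all alternatives.

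In lipid metabolism, Sqle fell and Cpt1a rose. Of 21 enzymes of sterol synthesis, 1 fell, against 0.161% of all genes tested, 0 rose, against 0.517%, and 20 did not pass. A log2 fold change below 0 was found in 20, against 53.1% of all genes tested. The median was -0.19, and it was -0.37 without NT 1 and -0.28 without IR 3. Sqle, the squalene epoxidase (chromosome 15, 59315077 to 59331192), was at 16.4 and 23.8 CPM in NT and at 7.71 and 8.76 in IR. Both IR samples lay below NT 1, the lower NT sample, and Sqle fell by 1.29 ± 0.19 (2.44-fold lower, adjusted p = 0.0230). Without NT 2+3 the log2 fold change was -1.003 (adjusted p = 0.0902). Msmo1, which removes methyl groups from sterols, was at 19.8 and 24.0 CPM in NT and at 10.4 and 13.9 in IR (log2 -0.86 ± 0.17, adjusted p = 0.0617). Its lowest sample was IR 1+2, and the groups did not overlap. Hmgcs1, at an earlier step, lay near the list median (log2 -0.16), and Ebp, at a later step, lay near 0 (-0.02).

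Of 27 tested genes of fatty acid oxidation and targets of the lipid sensor PPAR, Cpt1a rose, 0 fell and 26 did not pass. Of all genes tested, 0.517% rose and 0.161% fell. In 15 of the 27 both IR samples lay above both NT samples, against 23.9% of all genes tested, and in 0 below, against 27.3%. The median log2 was 0.13, and ran from 0.10 to 0.17 under the alternatives. Cpt1a, which admits long-chain fatty acids to mitochondria, was at 84.2 and 91.9 CPM in NT and at 140 and 135 in IR. Its groups did not overlap, and it rose 1.56-fold (log2 0.64 ± 0.10, adjusted p = 0.0256). Ucp2, a mitochondrial carrier, was at 208 and 204 CPM in NT and at 293 and 308 in IR (0.54 ± 0.13, adjusted p = 0.0998). Pdk4, the kinase that closes pyruvate dehydrogenase, was at 4.98 and 5.58 CPM in NT and at 9.21 and 7.68 in IR (0.69 ± 0.18, adjusted p = 0.117). Hadha, an enzyme of the oxidation spiral, was at 96.1 and 95.0 CPM in NT and at 101 and 98.0 in IR.

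Of 22 genes of fatty acid and glyceride synthesis, 0 passed in either direction and the median log2 was -0.12, which was -0.27 without IR 1+2 and -0.07 without NT 2+3. Lpin1, a phosphatidate phosphatase and coactivator, was at 68.8 and 72.3 CPM in NT and 125 and 136 in IR (log2 0.89 ± 0.20, adjusted p = 0.0898). Elovl1, which extends very long chains, was at 42.4 and 43.5 CPM in NT and 31.7 and 33.3 in IR (-0.40 ± 0.09, adjusted p = 0.0900). Their groups did not overlap, and the directions were opposite. A pair of genes of sphingolipid synthesis fell: Sptssa, a small subunit of serine palmitoyltransferase, from 29.8 and 30.2 CPM to 20.1 and 21.0 (adjusted p = 0.0377), and Ormdl2, a regulator of that enzyme, from 13.1 and 13.4 to 7.88 and 8.55 (adjusted p = 0.0404). Ormdl2 shares exon positions with Dnajc14 on the opposite strand, which had 4894 reads over the 4 samples against 1185.

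In energy metabolism no gene of the lists passed. In glycolysis 0 of 22 genes passed (median log2 -0.15), in the tricarboxylic acid cycle 0 of 18 (-0.02), among nuclear genes of oxidative phosphorylation 0 of 75 (-0.07) and among mitochondrial genes 0 of 12 (0.19). Ldha, the lactate dehydrogenase of glycolytic tissue, came nearest, at 238 and 291 CPM in NT and 186 and 183 in IR (log2 -0.52 ± 0.12, adjusted p = 0.0982). Its groups did not overlap. The median of the nuclear list turned to 0.02 without IR 1+2. That of the mitochondrial list was 0.01 without NT 2+3 and 0.37 without NT 1, and that of glycolysis -0.07 without NT 2+3 or without IR 3. The cycle list turned to 0.01 without IR 1+2. Ppa1, the pyrophosphatase that pulls biosynthetic reactions forward, fell by 1.14 ± 0.14, from 58.9 and 79.7 CPM to 32.4 and 30.5 (adjusted p = 0.00843), and passed without NT 2+3 too (adjusted p = 0.0164). Its IR samples lay well below both NT samples.

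Of 26 tested genes of amino acid synthesis and the ATF4 response, 0 passed and the median log2 was -0.30, which turned to 0.04 without NT 2+3 and was -0.55 without NT 1. Aldh1l2, a mitochondrial folate enzyme, shows the pattern: it was at 22.4 CPM in NT 1, 70.6 in NT 2+3, and 16.9 and 15.4 in IR. NT 2+3 was thus the sample that stood apart. Chac1 and Trib3, also ATF4 targets, lay in the other direction, with Trib3 at 1.55 and 1.40 CPM in NT and 3.09 and 3.52 in IR (log2 1.16 ± 0.60, adjusted p = 0.359).

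Of 24 tested genes of glutathione and the NRF2 response, 0 passed and the median log2 was -0.11. The 2 subunits of the enzyme that starts glutathione synthesis lay in opposite directions. Gclc, the catalytic subunit, was at 43.1 and 46.3 CPM in NT and at 75.8 and 82.3 in IR (log2 0.82 ± 0.16, adjusted p = 0.0576). Gclm, the modifier subunit, was at 18.9 and 20.2 CPM in NT and at 14.1 and 13.95 in IR (-0.48 ± 0.10, adjusted p = 0.0806). Neither gene overlapped between groups. Nqo1, a common marker of NRF2 activity, was at 1.70 and 1.47 CPM in NT and 0.340 and 0.865 in IR (-1.45 ± 0.44, adjusted p = 0.154).

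The circadian clock is a loop in which BMAL1 (gene Arntl) and CLOCK act on E-box motifs to switch on the Per, Cry, Nr1d and Bhlhe genes, whose products hold them back. DBP and TEF activate, and NFIL3 represses, genes with D-box motifs, and salivary glands carry such a clock. Of 26 tested clock genes, Nfil3 fell (0.161% of all genes did), 0 rose (0.517% of all genes did) and 25 did not pass. Both IR samples lay above both NT samples in 17 genes, or 65.4%, against 23.9% of all genes. They lay below in 5, or 19.2%, against 27.3% of all genes. The hour at which glands were taken is not given, so irradiation and the hour of collection cannot be told apart here.

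Nfil3 (chromosome 13, 52967209 to 52981073) was at 12.4 and 17.3 CPM in NT and at 5.51 and 5.73 in IR. The groups did not overlap, and it fell by 1.40 ± 0.22 (2.64-fold lower, adjusted p = 0.0281). It was at 6.31 and 4.80 CPM in IR+GFP. Arntl was at 2.76 and 2.90 CPM in NT and at 1.56 and 0.433 in IR (log2 -1.44 ± 0.46, adjusted p = 0.166). The IR samples were lower but far apart from each other.

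Most repressors and output genes lay on the other side without passing. Of the 11 repressors the median log2 was 0.56, and it ran from 0.49 to 0.61 under the alternatives. Per3 was at 17.1 and 13.8 CPM in NT and at 34.7 and 33.1 in IR (1.13 ± 0.21, adjusted p = 0.0576). Nr1d1, which encodes the repressor REV-ERB alpha, was at 33.8 and 35.4 CPM in NT and at 73.4 and 87.8 in IR (1.22 ± 0.24, adjusted p = 0.0704). The groups did not overlap in either. Ciart, a repressor of CLOCK and BMAL1, was at 1.24 and 0.844 CPM in NT and at 3.16 and 4.71 in IR (1.89 ± 0.37, adjusted p = 0.0609). Bhlhe41, which competes for E-boxes, was at 11.3 and 12.2 CPM in NT and at 16.5 and 20.9 in IR (0.67 ± 0.13, adjusted p = 0.0539). Both were higher in each IR sample. Cry1 lay lower, at 6.61 and 5.51 CPM in NT and 3.43 and 4.87 in IR, while IR+GFP stood above NT at 8.53 and 8.18. The 2 irradiated groups were thus on opposite sides of NT for Cry1.

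Among 10 clock outputs and modifiers the median log2 was 0.32. Dbp was at 9.50 and 16.6 CPM in NT and at 42.1 and 42.7 in IR (1.71 ± 0.34, adjusted p = 0.0790). Tef was at 97.1 and 84.7 CPM in NT and at 136 and 160 in IR (0.70 ± 0.14, adjusted p = 0.0639). The groups did not overlap in either, and IR+GFP lay with IR, at 46.7 and 47.8 CPM for Dbp and 176 and 154 for Tef. Dbp shares exon positions with Sphk2, and Nr1d1 with Thra, both on the opposite strand. Of 12 genes that respond to glucocorticoids, hormones that follow the daily cycle, 0 passed and the median log2 was 0.29, which was 0.16 without IR 3. Fkbp5, the best known of them, overlapped between groups, at 156 and 131 CPM in NT and 153 and 203 in IR.

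**Figure D4:**
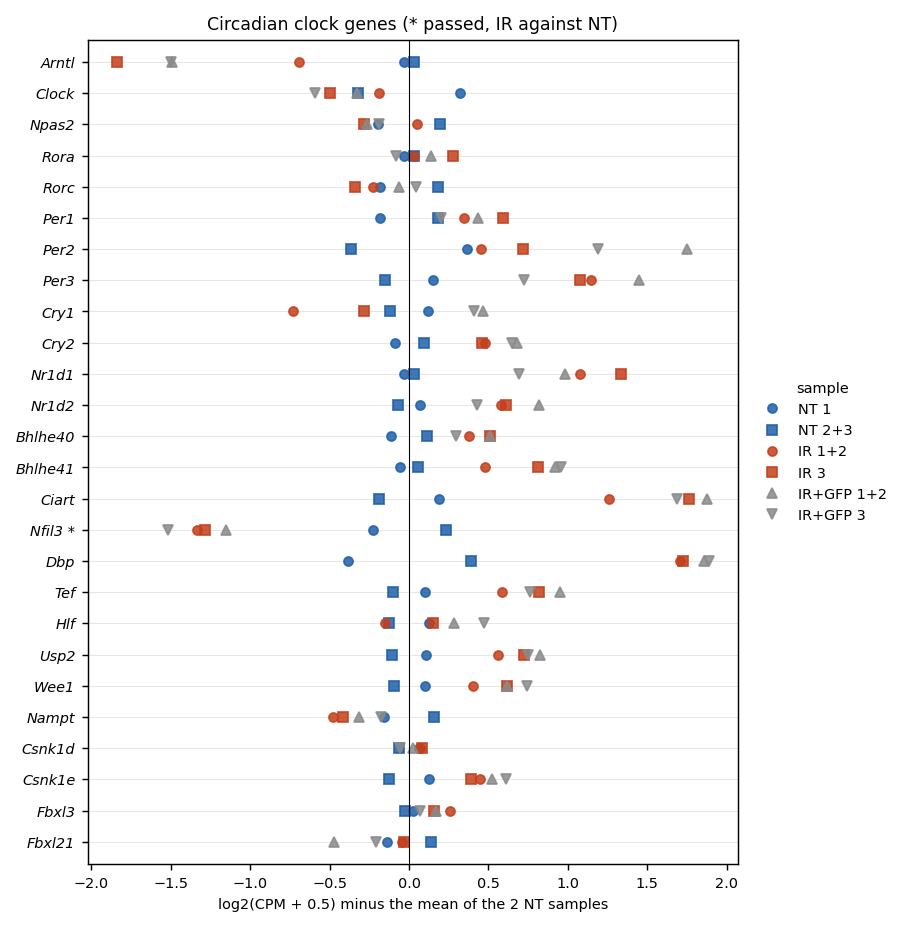
Levels of the 26 tested clock genes as log2(CPM + 0.5) in each sample minus the mean of the 2 NT samples (horizontal axis), 1 gene per row, with the asterisk marking Nfil3, which passed. Blue is NT, red IR and grey IR+GFP; for Dbp, Ciart, Nr1d1 and Per3 both red and both grey symbols lie right of the blue ones, and for Nfil3 and Arntl left.

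The E-box CACGTG stood within 250 bases before the gene start in 1978 of 32851 promoters (6.02%), in 4 of 9 clock repressors with a promoter in the table (Bhlhe41, Ciart, Cry1 and Per1) and in 1 of 7 outputs (Tef). The D-box, searched as TTATGTAA or TTACGTAA on both strands, stood in 306 promoters (0.931%), and among the clock genes in that of Per3, at 2 places. Stretches of Ciart (chr3:95882237-95882374), Bhlhe41 (chr6:145865538-145865603) and Per3 (chr4:151044786-151044900), all minus strand genes of GRCm38.p6, are shown with the motifs in capitals because these 3 repressors came nearest to the threshold upward.
Ciart: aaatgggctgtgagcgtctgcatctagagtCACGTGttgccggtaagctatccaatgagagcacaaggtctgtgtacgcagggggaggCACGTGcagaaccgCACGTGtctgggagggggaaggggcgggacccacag
Bhlhe41: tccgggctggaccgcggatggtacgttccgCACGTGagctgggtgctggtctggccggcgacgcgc
Per3: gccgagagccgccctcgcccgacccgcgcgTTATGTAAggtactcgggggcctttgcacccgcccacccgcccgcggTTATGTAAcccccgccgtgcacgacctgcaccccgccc

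Ciart held 3 E-boxes, from 110 to 38 bases before its start, Bhlhe41 held 1 at 147 bases, and Per3 held D-boxes at 197 and 150 bases. Binding at these places was not measured.

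Among duct genes, Ascl3 and Clcn2 rose. The duct lists held 64 tested genes, of duct keratins and transcription factors, duct ion transport and ionocytes. Of these, 2 rose, against 0.517% of all genes tested, 0 fell, against 0.161%, and 62 did not pass. Both IR samples lay above both NT samples in 20 (31.2%, against 23.9% of all genes) and below in 9 (14.1%, against 27.3%). The median log2 was 0.10. Ascl3 (chromosome 7, 109727465 to 109731726), a transcription factor of a duct cell population with progenitor and ionocyte features, was at 21.1 and 17.7 CPM in NT and at 31.6 and 40.8 in IR. The groups did not overlap, and it rose 1.86-fold (log2 0.90 ± 0.14, adjusted p = 0.0242). It was at 35.4 and 36.2 CPM in IR+GFP. Without IR 3 the log2 fold change was 0.70 (adjusted p = 0.191), and without NT 2+3 it was 0.77 (0.119).

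Of the 15 tested ionocyte genes, Ascl3 rose, 14 did not pass, and the median log2 was 0.27, which was 0.42 without IR 3. Foxi1, the master regulator of ionocytes, overlapped between groups, at 23.0 and 18.0 CPM in NT and 19.4 and 21.5 in IR. Bsnd, another gene of the list, overlapped, at 31.9 and 20.4 CPM in NT and 26.6 and 30.02 in IR. Atp6v1c2, a proton pump subunit, was at 12.5 and 13.1 CPM in NT and at 27.6 and 29.4 in IR (1.15 ± 0.23, adjusted p = 0.0698). It shares exon positions with Pdia6 on the opposite strand, which had 29493 reads over the 4 samples against 2125.

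Clcn2, a chloride channel, was at 56.1 and 52.9 CPM in NT and at 83.1 and 74.1 in IR. It rose 1.44-fold (log2 0.53 ± 0.10, adjusted p = 0.0479) with no overlap, and shares exon positions with Polr2h and Fam131a on the opposite strand. The epithelial sodium channel takes up sodium in ducts. Its subunit genes did not pass: Scnn1a was at 75.7 and 73.9 CPM in NT and 92.0 and 117 in IR, and Scnn1g overlapped between groups. Slc26a6, an anion exchanger, was at 4.43 CPM in NT 1 and 23.3 in NT 2+3, against 3.26 and 3.89 in IR, so NT 2+3 stood apart. Of 15 keratins and transcription factors of ducts, 0 passed in either direction and the median was -0.01, between -0.09 and 0.05 with a sample left out. Krt7 was at 237 and 247 CPM in NT and 241 and 240 in IR, and Krt19 at 11.2 and 10.1 in NT and 10.3 and 9.79 in IR. Krt7 and Krt19 thus overlapped between the groups, while Ascl3 did not.

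**Figure D5:**
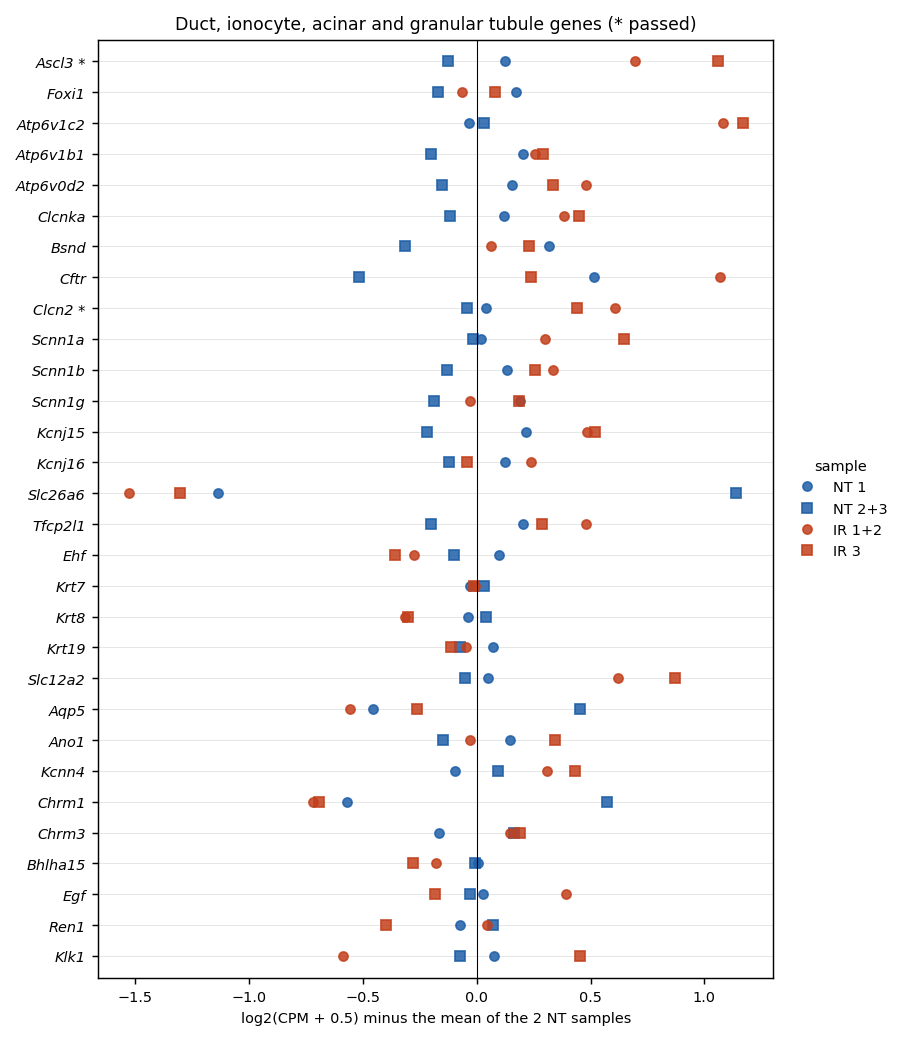
Levels of 30 duct, ionocyte, acinar and granular tubule genes, shown for their roles, as log2(CPM + 0.5) in each sample minus the mean of the 2 NT samples (horizontal axis), 1 gene per row. Blue is NT and red IR; Ascl3 and Clcn2 passed and lie right of 0 in both IR samples, while Slc26a6, Chrm1 and Aqp5 show the NT samples far apart.

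Of 43 tested acinar genes, 0 passed in either direction, and the median log2 was 0.09. Slc12a2, the cotransporter that loads chloride into acinar cells, was at 623 and 582 CPM in NT and at 926 and 1101 in IR (0.75 ± 0.18, adjusted p = 0.0998). Its groups did not overlap. Kcnn4, a potassium channel opened by calcium, was at 129 and 147 CPM in NT and at 171 and 187 in IR (0.37 ± 0.12, adjusted p = 0.166). Aqp5, the water channel of acinar cells, overlapped, at 202 and 380 CPM in NT and 188 and 231 in IR, with NT 2+3 the highest. Bhlha15, the transcription factor MIST1 of secretory cells, was at 244 and 241 CPM in NT and at 214 and 200 in IR (-0.23 ± 0.21, adjusted p = 0.613). Of 19 tested genes of acinar identity and salivary products, 11 overlapped between the groups, against 48.8% of all genes tested. Among them was Car6, the salivary carbonic anhydrase, at 20420 and 14540 CPM in NT and 20060 and 23140 in IR.

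Of 22 tested genes of the granular convoluted tubule, 0 passed in either direction and 19 overlapped between the groups, against 48.8% of all genes tested. The median log2 was -0.19, and turned to 0.01 without IR 3 and was -0.40 without IR 1+2. Egf, the gene of epidermal growth factor, was at 61480 and 59040 CPM in NT and 79140 and 53090 in IR. It lay higher in IR 1+2 than in IR 3, with both NT samples between. Kallikrein genes of this family have near-identical sequences, and reads with several alignments were counted for no gene, so their levels are uncertain.

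Markers of other cells were low in number and are given for what moves with the groups. The 5 tested leukocyte markers of 10 summed to 66.8 and 44.5 CPM in NT and to 35.4 and 35.1 in IR. In all 5 both IR samples lay below both NT samples, against 27.3% of all genes tested, and 0 passed. The 5 red cell markers summed to 103 and 138 CPM in NT and to 52.1 and 36.0 in IR, and 0 passed. Of 5 neutrophil markers, 3 had 0 reads in all 4 samples. The 4 tested skeletal muscle markers of 10 summed to 2.31 and 3.05 CPM in NT and 5.20 and 5.57 in IR, and 3 of the 10 had 0 reads in all 4 samples. The 10 adipocyte markers summed to 82.9 and 110 CPM in NT and 165 and 111 in IR, and Adipoq, which defines the cell, was at 0.0303 and 0.881 CPM in NT and 3.98 and 0.216 in IR. Their median log2 of 1.12 turned to -0.76 without IR 1+2. Summed levels of leukocyte and red cell markers were lower in both IR samples. Those of skeletal muscle and adipocyte markers were higher, the latter by little in IR 3. Basal and myoepithelial genes (988 and 988 CPM in NT, 1118 and 1309 in IR) were also higher. So were nerve and Schwann markers (43.3 and 51.2 CPM in NT, 52.3 and 59.1 in IR). Sums of endothelial and fibroblast markers overlapped between groups. The part of these cells in the results was not tested.

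The remaining genes that fell are known for roles outside the lists. Tubb5, a beta-tubulin, fell by 0.80 ± 0.10 (80.5 and 70.0 CPM to 41.5 and 45.1, adjusted p = 0.0115), and Ran, the GTPase of nuclear transport, by 0.67 ± 0.12 (adjusted p = 0.0402). Both were lower in each IR sample. Cdc25a, a phosphatase that drives the cell cycle, fell by 0.72 ± 0.12 (adjusted p = 0.0363), and Psmd14, a deubiquitinase of the proteasome, by 0.71 ± 0.12 (adjusted p = 0.0330). Ckap4, a membrane protein of ER sheets, fell by 0.70 ± 0.12 (adjusted p = 0.0385), and Lap3, a leucine aminopeptidase, by 0.53 ± 0.09 (adjusted p = 0.0404). Slc35g2, Tmem123, Tmem56 and Rnf121 complete the 23, with log2 fold changes from -1.93 to -0.58. In all 23 both IR samples lay below both NT samples, against 27.3% of all genes tested. The 23 were selected by a test on these same samples, so this lack of overlap adds no support.

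The 20 largest rises ran from Psrc1 to Tmem156 and included p53 targets with few reads in NT. Psrc1, which acts on the mitotic spindle, had 4 and 2 reads in NT and 48 and 49 in IR. Myo16 had 3 and 2 reads in NT and 21 and 21 in IR, and Syt12 had 1 and 2 in NT and 14 and 13 in IR. No fold is given for these 3 because the NT counts are so low. Gdf15, a secreted factor that curbs appetite, was at 0.667 and 2.06 CPM in NT and at 33.4 and 19.3 in IR (adjusted p = 0.0383). Mybl1 and Ddias had at most 10 reads in an NT sample, against 34 to 84 in an IR sample. The other rises were Tmem44, Inka2, Dyrk3, Dnah10, Dnah11, Tnfrsf10b and Trp53inp1. The axonemal dyneins Dnah10 and Dnah11 rose 5.44-fold and 3.003-fold (adjusted p = 0.0251 and 0.0256), with Dnah10 at 3.31 and 1.76 CPM in NT and 14.03 and 13.85 in IR. In IR+GFP, Dnah10 was at 15.8 and 12.7 CPM and Dnah11 at 13.1 and 8.80, the latter between the 7.89 and 4.85 CPM of NT and the 18.4 and 20.01 CPM of IR.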

How the data were processed

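RNA of 15 libraries was sequenced, and the 6 libraries of NT and IR were compared. The files, as deposited by the authors, give raw read counts for each gene. Per the submitters' processing notes, the tools were HTSeq 0.10.0, TopHat2 2.0.13, DESeq2 and Bowtie 0.12.2 with the builds mm10 and GRCm38; the annotation release and strand mode are not given in the sources used here. Lines that name no gene were left out. As shares of all reads listed, these lines included, reads with several alignments were 2.89% to 4.61% in NT and IR. Reads in no gene or in overlapping genes were 3.58% to 4.4%. The most abundant gene, Mucl2, took 16.6% to 28.0% of gene reads. Symbols came from GENCODE vM21, which named 96.0% of genes.

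Near-identical libraries were combined by the rounded mean of their counts, giving 10 samples over 5 groups. Genes were filtered with filterByExpr, scaled with TMM and fitted together in edgeR 4.0.16 (R 4.3.3), robust quasi-likelihood, 5 residual degrees of freedom, two-sided, with Benjamini-Hochberg adjustment over all 14300 genes and a threshold of 0.05. Levels are CPM, and ± after a log2 fold change is its standard error from that model. Alternatives used DESeq2 1.42.0, limma 3.58.1, other scalings and filters, and left out each sample. The fit was also run on counts simulated from its own means and spread, which cannot test whether that model holds for these samples.

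The members and 38 gene lists (750 symbols, 747 matched) were chosen with earlier results of these data known. Named genes were the irradiation markers, every gene that fell, the 20 largest rises, list members that passed and up to 4 others per list by p. Further list members, and genes outside the lists, were named for their roles after their values were seen. A few members that count in the lists are not reported here by name.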

Additional observations from a re-analysis of the deposited data

Results flagged for a closer look

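The share of reads that lay in no gene, or in overlapping genes, was higher in each irradiated library than in any untreated one. As a share of all reads listed, gene reads and other lines together, it was 4.40% in IR 1, 4.375% in IR 2 and 4.085% in IR 3. In NT it was at most 3.861%. IR 1 and IR 2 are the near-identical pair, so their shares are not independent. These reads enter no gene count and were not analysed further.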

How the results depend on the processing

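The 97 changed genes (74 higher, 23 lower) became 471 (258 and 213) with DESeq2, 1242 (493 and 749) with no low-count filter, and 311 (200 and 111) without IR+GFP 3 and IR+Gli1 3 in the shared spread. With limma-voom 13 were lower. With the 15 libraries kept separate, near-identical ones included, the counts were 4154 (1921 and 2233), and 4048 (1908 and 2140) with the replicate number as a block. Deviations from the group mean correlated with r from -0.037 to 0.014 between same-numbered libraries of NT and IR. Between differently numbered libraries r was -0.025 to 0.039. Because each group holds a near-identical pair, these values are not independent and cannot settle whether the numbers pair the libraries. Leaving out a sample gave 16 (16 higher, 0 lower) without IR 1+2, 9 (9 and 0) without IR 3, 538 (150 and 388) without NT 1 and 21 (18 and 3) without NT 2+3. The other scalings gave 91 to 101 changed genes, but with total-count scaling 56 of its 91 were among the 97, and with NT and IR fitted alone 57 of 97 were. Library depth limits genes with few reads, such as Syt12 and Myo16, and 2 samples a group limit all results.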
